A study of Mus musculus with 2 samples.

Results

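The distal miRNA cluster of the imprinted Dlk1-Dio3 region on mouse chromosome 12 was described across both libraries of a microRNA sequencing series of embryonic neural tube. Members were the miRNA genes of the deposited tables that lie, by position on the mm10 genome, between Mir379 and Mir3072, which gave 38 of 1973 genes. The rule used position only and no measured value, although the region was picked for description with earlier results of these data known. The tissue was neural tube from mouse embryos of strain B6NCrl at 15.5 days, male and female pooled, with 78 embryos in library 1 and 62 in library 2. Both libraries belong to 1 group and are labelled as biological replicates, so the data hold no treated or mutant sample and no comparison of conditions. Each value comes from a pool of whole dissected tissue, in which fewer cells of a type and less RNA per cell cannot be told apart.

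MicroRNAs (miRNAs) are short RNAs cut from hairpin precursors, and they repress messenger RNAs that pair with their seed, the bases 2 to 8 from the 5′ end. The Dlk1-Dio3 region is imprinted: Dlk1, Rtl1 and Dio3 are expressed from the paternal chromosome, and the non-coding genes Meg3, Rian and Mirg, with the miRNA genes, from the maternal one. The distal miRNA genes form a dense cluster found in placental mammals that is processed from long maternal transcripts. It is known from brain, where it acts in neurogenesis, neuronal migration and the growth of dendrites, and where neuronal activity induces it through the transcription factor Mef2.

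RefSeq (build GRCm38.p6) gave at least 1 mature sequence for 37 of the 38 members. Those of the 12 most abundant members are shown first, because these genes held 93.2% ± 0.658 of the counts of the cluster (SD, n = 2). Capitals mark the seed, and each is written 5′ to 3′. The counts are per gene and do not say which of the 2 arms of a hairpin, 5p or 3p, a read came from.
mmu-miR-487b-5p: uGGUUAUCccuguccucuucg
mmu-miR-369-5p: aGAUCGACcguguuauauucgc
mmu-miR-369-3p: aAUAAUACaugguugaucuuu
mmu-miR-382-5p: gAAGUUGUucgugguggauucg
mmu-miR-382-3p: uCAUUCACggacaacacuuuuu
mmu-miR-411-5p: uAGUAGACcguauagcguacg
mmu-miR-411-3p: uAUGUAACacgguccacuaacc
mmu-miR-409-5p: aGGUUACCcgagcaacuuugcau
mmu-miR-409-3p: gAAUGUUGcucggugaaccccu
mmu-miR-381-5p: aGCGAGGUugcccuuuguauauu
mmu-miR-381-3p: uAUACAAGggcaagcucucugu
mmu-miR-376a-5p: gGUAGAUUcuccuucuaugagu
mmu-miR-376a-3p: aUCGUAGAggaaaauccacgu
mmu-miR-541-5p: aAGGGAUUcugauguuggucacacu
mmu-miR-541-3p: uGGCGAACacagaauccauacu
mmu-miR-379-5p: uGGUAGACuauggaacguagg
mmu-miR-379-3p: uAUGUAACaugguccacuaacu
mmu-miR-323-5p: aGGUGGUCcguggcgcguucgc
mmu-miR-323-3p: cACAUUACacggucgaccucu
mmu-miR-154-5p: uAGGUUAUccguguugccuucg
mmu-miR-154-3p: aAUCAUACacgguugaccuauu
mmu-miR-134-5p: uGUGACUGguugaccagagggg
mmu-miR-134-3p: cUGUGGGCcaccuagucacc

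In these sequences the 3p arms of Mir379 and Mir411, neighbouring genes at the start of the cluster, carry the same seed, AUGUAAC. Their 5p seeds, GGUAGAC and AGUAGAC, are not identical. The sequences used here give both arms for 32 of the 38 members, so seeds of missing arms are not counted. The 69 mature sequences of the members hold 64 different seeds, and 5 seeds occur in more than 1 member, in 9 members in all. These are AUGUAAC in Mir379 and Mir411, GGUAGAC in Mir379 and Mir1193, GGUUGUC in Mir410 and Mir494, GGUUGCC in Mir453 and Mir496a, and GGUUGAC in Mir758 and Mir1197. The genes with the AUGUAAC seed together reached 7557 CPM in library 1 and 7160 in library 2 (counts per 1000000 sense-strand miRNA gene counts of the library). The 2 genes with GGUAGAC reached 2666 and 2313 CPM, and the genes of each other shared seed summed to at most 238 CPM in library 1 and 198 CPM in library 2. These sums are of whole genes and not of the arm that carries the seed, and Mir379 is in both of the first 2 sums.

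The cluster was strongly represented among the miRNA gene counts of the neural tube, and its level was carried by a few genes. Its counts equalled 6.56% of the sense counts of library 1 (95% Wilson interval 6.54 to 6.59) and 7.30% of library 2 (7.28 to 7.32). This is a mean of 6.93% ± 0.520 (SD, n = 2). The counts of 4 members, read from the opposite strand as described below, are not in these totals. The intervals treat all counts of the members as part of the total. Without those 4 members the mean was 6.13%. The mean was 3.61% without the 5 members that share 20 bases with another precursor, and 13.0% of a total without the 3 most abundant genes of the tables. At least 10 counts in each library were found for 34 of 38 members, against 18.6% of all genes in the tables. Of the 20 proximal miRNA genes of the region, described below, 15 were detected by this rule. The median over all 38 members was 244 CPM, while the median over the 1973 genes of the tables was 0 CPM. Among detected genes alone, the median was 378 CPM over the 34 members and 143 CPM over all 367. Over the 15 detected proximal genes it was 545 CPM. Library 1 held 4228685 sense counts and library 2 held 6039889, so 1 count corresponds to 0.236 and 0.166 CPM. Levels are compared per read, with no division by gene length. Whether reads of different genes stand for equal numbers of RNA molecules was not tested, so rankings of genes are rankings of reads. Reads that align to more than 1 place, 29.4% of all reads in library 1 and 29.7% in library 2, were counted in no gene. How far this altered the share and the ranks of the members was not tested.

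**Figure D1:**
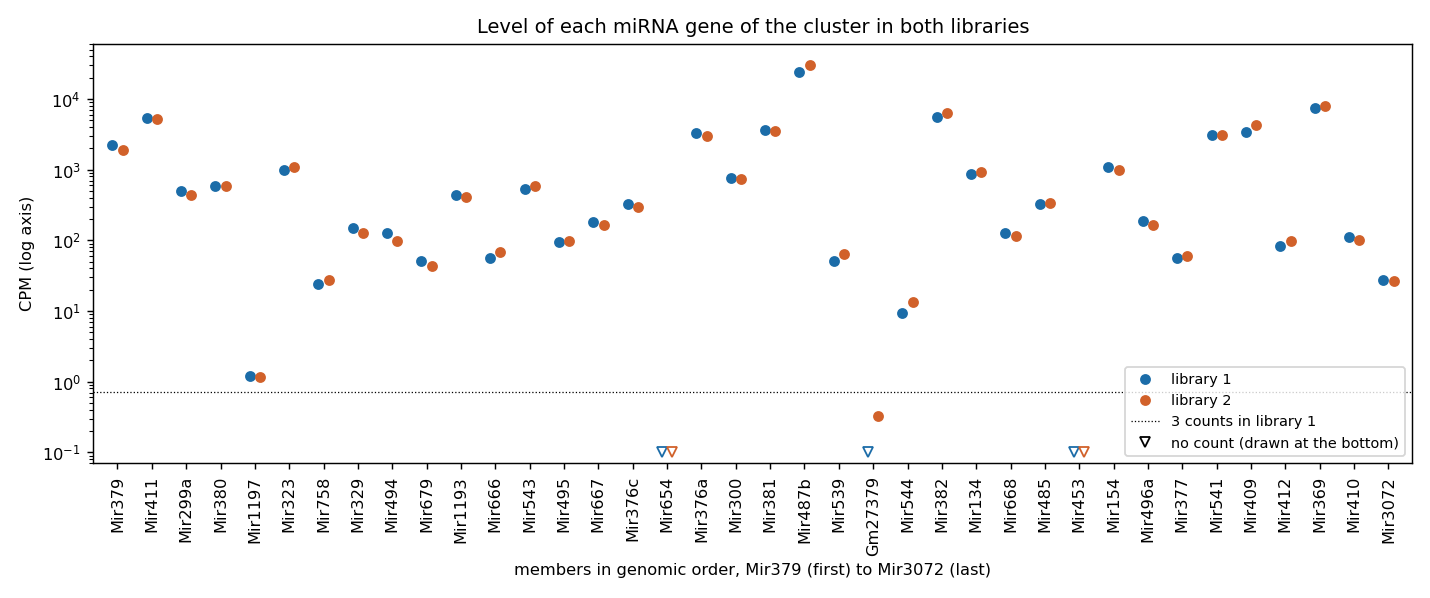
CPM of each of the 38 members in library 1 (blue) and library 2 (orange), on a log axis, in genomic order from Mir379 to Mir3072; open triangles mark a count of 0 and the dotted line is the level of 3 counts in library 1. Mir487b stands highest at 24016 and 30140 CPM, and Mir412 lies far below its neighbours Mir409 and Mir369 in both libraries.

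Mir487b was the most abundant member, with 24016 CPM in library 1 and 30140 in library 2, the 7th and 6th highest levels of all miRNA genes in the tables. These ranks leave out reads that align to more than 1 place. It lies at chr12:109727333-109727414 on the plus strand (ENSMUSG00000076219.1), upstream of the annotated start of the non-coding gene Mirg. It alone held 36.6% of the cluster's counts in library 1 and 41.3% in library 2. Mir369, whose 3p product is known for acting on messenger RNAs with AU-rich elements, followed at 7384 and 7943 CPM, and Mir382 at 5534 and 6286 CPM. Both were above their library 1 level in library 2, as was Mir487b.

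The hairpins of the 4 most abundant members show where the mature RNAs lie, which are in capitals here. They are printed because these genes held most of the cluster's counts, and because all 4 hold the letters UACUUG near their 5′ end. Of Mir487b the sequences used here give the 5p arm, so the letters in lower case are not thereby shown to hold no mature RNA.
Mir487b: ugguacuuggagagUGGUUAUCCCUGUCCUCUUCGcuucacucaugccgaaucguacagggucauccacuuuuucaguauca
Mir369: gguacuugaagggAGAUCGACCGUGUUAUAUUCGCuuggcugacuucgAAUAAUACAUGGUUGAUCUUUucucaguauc
Mir382: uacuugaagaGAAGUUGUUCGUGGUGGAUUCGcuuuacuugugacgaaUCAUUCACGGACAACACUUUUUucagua
Mir411: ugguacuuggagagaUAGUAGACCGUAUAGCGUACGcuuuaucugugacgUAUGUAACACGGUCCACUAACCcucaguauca

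Mir411 reached 5324 CPM in library 1 and 5262 in library 2. The gene is the second of the cluster, and its libraries lay closer together than those of Mir487b. Mir409 reached 3392 and 4216 CPM, and Mir381 3657 and 3539 CPM. Mir376a, a member of a family whose precursors are known to be edited by adenosine deaminases, reached 3313 and 2983 CPM. Mir541 was nearly equal in both libraries, with 3048 and 3057 CPM, and Mir379, the first gene of the cluster, had 2233 and 1898 CPM. Together these 9 genes and Mir323, with 993 and 1089 CPM, Mir154, with 1081 and 990 CPM, and Mir134, with 862 and 933 CPM, were the 12 highest members in both libraries. The other 26 members together held 6.82% ± 0.658 of the cluster's counts (n = 2).

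**Figure D2:**
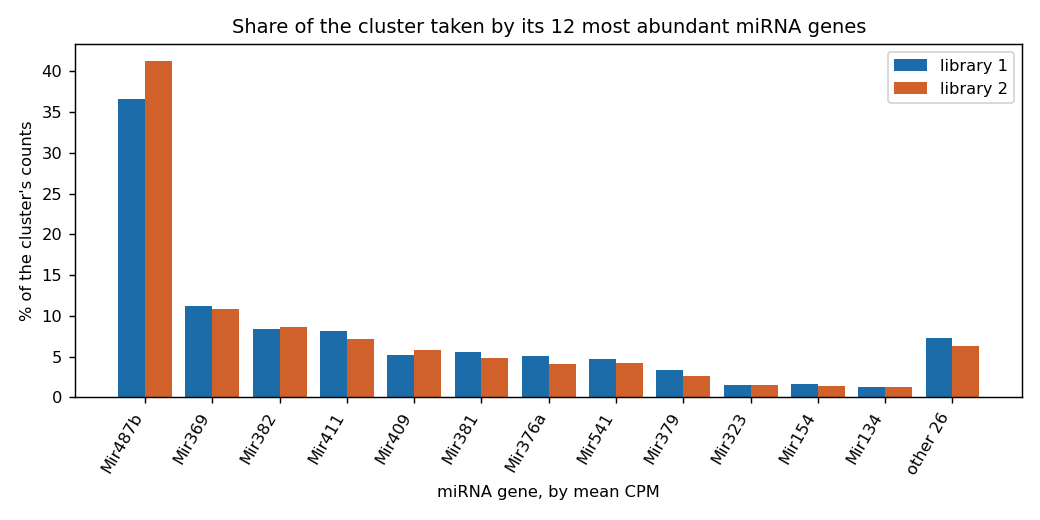
Percentage of the cluster's counts taken by each of its 12 most abundant miRNA genes, and by the other 26 together, in library 1 (blue) and library 2 (orange). Mir487b took 36.6% and 41.3%, and the next gene, Mir369, 11.3% and 10.9%.

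The concentration on a few genes was of like size in both libraries. The inverse Simpson index, the number of equally abundant genes that would give the same concentration, was 5.78 in library 1 and 4.86 in library 2. The 3 most abundant genes held 58.5% ± 3.19 of the cluster's counts and the 5 most abundant 71.7% ± 2.99 (n = 2). At least 1000 CPM were reached by 10 members in each library, and at least 100 CPM by 25 and 24. No member changed its rank within the cluster by more than 3 places between the libraries. Across the 34 detected members Pearson's r of log2(CPM + 1) between the libraries was 0.997 and Spearman's rho 0.996, against 0.976 and 0.970 across all 367 detected genes. These are descriptions across genes of the same 2 libraries.

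Members known from dendrites and synapses spanned a wide range of levels. Mir381, which with Mir329 and Mir134 is known to be induced by neuronal activity and to act in dendrite growth, had 3657 and 3539 CPM, as given above. Mir134, which limits dendritic spine size by repressing the kinase Limk1, had 3646 counts in library 1 and 5634 counts in library 2. Mir329 was lower, with 147 CPM in library 1 and 125 in library 2. Mir485, known to restrain synaptic strength and to repress the vesicle protein Sv2a, had 325 and 339 CPM. Of these genes Mir381 and Mir134 were among the 100 most abundant miRNA genes of both libraries, and Mir485 and Mir329 were not.

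Mir369, Mir496a and Mir543 are known to act together on N-cadherin in neurogenesis and in the migration of new neurons. Their levels differed widely. Mir543 had 534 CPM in library 1 and 578 in library 2, and Mir496a had 187 and 167 CPM, both well below Mir369. In library 1 Mir496a was above its library 2 level and Mir543 was below it.

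The remaining detected members lay between 9.22 and 760 CPM. Mir300, the neighbour of Mir376a, had 760 and 731 CPM, and Mir380 had 581 and 580 CPM. Mir299a had 494 and 432 CPM, Mir1193 433 and 415 CPM, and Mir376c 323 and 299 CPM. These 5 genes were higher in library 1 by CPM, Mir380 by less than 1 CPM. Above 100 CPM in at least 1 library were also Mir667 with 180 and 163 CPM, Mir668 with 126 and 113 CPM, Mir494 with 127 and 96.4 CPM and Mir410 with 111 and 102 CPM. Mir494 had the widest gap of these 4. Below 100 CPM in both libraries were Mir495 (94.4 and 97.8 CPM), Mir412 (83.2 and 96.2 CPM), Mir377 (57.0 and 59.1 CPM), Mir666 (55.6 and 68.9 CPM), Mir539 (51.1 and 63.4 CPM) and Mir679 (50.6 and 43.9 CPM). Lowest of the detected members were Mir3072, the last gene of the cluster, with 27.2 and 26.5 CPM, Mir758 with 24.1 and 27.3 CPM, and Mir544 with 9.22 and 13.2 CPM. The highest detected member exceeded the lowest 2604-fold in library 1 and 2276-fold in library 2 by counts.

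The 4 members that did not reach 10 counts were Mir1197, Gm27379, Mir654 and Mir453. Mir1197 had 5 and 7 counts, and Gm27379, a predicted miRNA gene, had 0 and 2 counts. Mir654 and Mir453 had 0 counts in both libraries, so that their level may be as high as 0.709 CPM in the first library and 0.497 CPM in the second (3 counts). Such limits and the intervals given here cover counting error only.

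The levels of 4 members were read from entries annotated on the minus strand. The entries of Gm24321, Gm25252, Gm25750 and Mir299b lie opposite the plus-strand genes Mir409, Mir376a, Mir380 and Mir299a, so reads counted on the strand opposite to the entry were taken for those genes. The strands are those of GENCODE M21, not of the release M4 used for counting, and the identifier of Mir299b has another version in M21. They numbered 14342 and 25463 for Mir409, 14010 and 18016 for Mir376a, 2456 and 3506 for Mir380, and 2091 and 2611 for Mir299a. On their own strand, Gm24321, Gm25252 and Gm25750 had 0 counts in both libraries and Mir299b had 7 and 3 counts. The 34 plus-strand members had 0 counts on the opposite strand in both libraries. These 4 entries held 11.6% ± 0.427 of the cluster's counts (n = 2), and the library totals, which are sums of sense-strand counts, do not include them.

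The Mir299a precursor is close to an inverted repeat, which is why its sequence is shown with that of Mir299b on the other strand. Capitals mark the mature RNAs listed by RefSeq.
Mir299a: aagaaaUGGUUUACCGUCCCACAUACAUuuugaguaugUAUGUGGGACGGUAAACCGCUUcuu
Mir299b: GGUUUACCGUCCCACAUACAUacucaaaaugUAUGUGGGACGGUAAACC
The precursors, each read on its own strand, have a stretch of 21 bases in common. Reads that align to more than 1 place were counted in no gene, and they made up 29.4% and 29.7% of all reads. How many of them came from this pair was not tested. The members Mir411, Mir758, Mir376c and Mir487b also share 20 bases with another precursor. Mir411 and Mir758 share them with each other, and Mir376c and Mir487b each share them with Mir376b. Together with Mir299a, these 5 members held 47.8% ± 2.52 of the cluster's counts (n = 2). Of the 69 mature sequences available, 0 occurred whole in the precursor of another annotated miRNA gene. For Mir487b and Mir376c only the 5p arm was available, so their 3p arms were not checked.

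Genes with high and low levels lay next to each other. The members span 38.9 kb, from the start of Mir379 at position 109709060 to the end of Mir3072 at position 109747960 of chromosome 12 (mm10, GENCODE M21), with a median gap of 590 bases. Mir412 lies 49 bases before Mir369 and 52 bases after Mir409, and had 83.2 CPM in library 1 and 96.2 in library 2 between genes at 7384 and 7943 CPM on one side and 3392 and 4216 CPM on the other. Mir1197, with 5 and 7 counts, lies 71 bases before Mir323, with 4197 and 6576 counts. Mir679 and Mir1193 are 20 bases apart, and Mir1193 was 8.97-fold higher by mean CPM. Across the 34 detected members, Spearman's rho of mean CPM with position was -0.03, as a description.

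Of the 38 members, 24 lie before the annotated start of Mirg at position 109729764 and 14 within Mirg, on its strand. Those before it held 66.4% ± 0.369 of the cluster's counts and those within it 33.6% ± 0.369 (n = 2). Mir487b alone held 39.0% ± 3.33, so the larger value before Mirg rests on that gene. Of the 24, 21 were detected, and of the 14 within Mirg 13 were. Of the latter, 9 overlap an annotated Mirg exon, Mir382, Mir134, Mir668, Mir485, Mir377, Mir412, Mir369, Mir410 and Mir3072, and these held 21.9% ± 0.231 of the cluster's counts. The other 5, Mir453, Mir154, Mir496a, Mir541 and Mir409, lie outside its exons and held 11.6% ± 0.138. The division between the parts of the cluster was the same in both libraries to within 1 percentage point, with 66.1% and 66.7% of the counts before Mirg.

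The pools differed in these genes in both directions, by less than 1.5-fold in each of the 34. An exact binomial test of each gene against the share given by the effective library sizes, two-sided with Benjamini-Hochberg adjustment over all 367 detected genes, called 17 of 34 members, while 50.1% of all detected genes were called. Of the members, 6 were called higher in library 1, as were 25.6% of all genes, and 11 in library 2, as were 24.5%, and 17 did not pass. The members' share of calls was therefore close to that of all genes. The test compares these libraries and takes account of counting error alone. With edgeR's exact test, which adds a coefficient of variation between the pools of 34.1% estimated from the same libraries, 0 of 34 members and 2.18% of all genes were called, and 0 members had an unadjusted p under 0.05. That spread was estimated from the same difference it is set against, so the count of 0 does not show that the pools are alike. Scaled by library size alone, the binomial test called 8 members toward library 1 and 9 toward library 2.

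Among members higher in library 2, Mir487b was 1.29-fold higher (95% exact counting interval 1.28 to 1.30). Mir409 was 1.28-fold higher in library 2 (1.25 to 1.30; exact binomial test, adjusted p = 1.18e-121), and Mir666 and Mir539 were each 1.27-fold higher, on 235 and 416 counts and on 216 and 383 counts. Mir382 was 1.17-fold higher (1.15 to 1.19) and Mir369 1.10-fold (1.09 to 1.12). The other called genes in this direction were Mir412 at 1.19-fold, Mir323 at 1.13-fold, Mir543 and Mir134 at 1.11-fold each and Mir541 at 1.03-fold. Mir412 and Mir541 no longer passed with library sizes alone (exact binomial test, adjusted p = 0.0682 and 0.906), and Mir541 did not with DESeq2 size factors (adjusted p = 0.0776).

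Higher in library 1 were Mir494, 1.28-fold (1.14 to 1.45; exact binomial test, adjusted p = 9.43e-05), Mir379 and Mir329, each 1.15-fold, Mir299a, 1.11-fold, Mir376a, 1.08-fold, and Mir154, 1.06-fold. The largest ratio of all members did not pass the test: Mir544, with 39 and 80 counts, had a log2 ratio, library 1 over library 2, of -0.56 (exact binomial test, adjusted p = 0.0931). Mir679, with 214 and 265 counts, had a log2 ratio of 0.17 (adjusted p = 0.322). For Mir411, with 22514 and 31782 counts, the 1.01-fold ratio of library 2 to library 1 had an interval of 0.997 to 1.03, and for Mir381 the ratio was 0.993 (0.973 to 1.01). Mir381 and Mir496a passed with library sizes alone, both higher in library 1. Genes called in opposite directions thus lay in the same stretch before Mirg, such as Mir376a, higher in library 1, and Mir487b, higher in library 2.

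**Figure D3:**
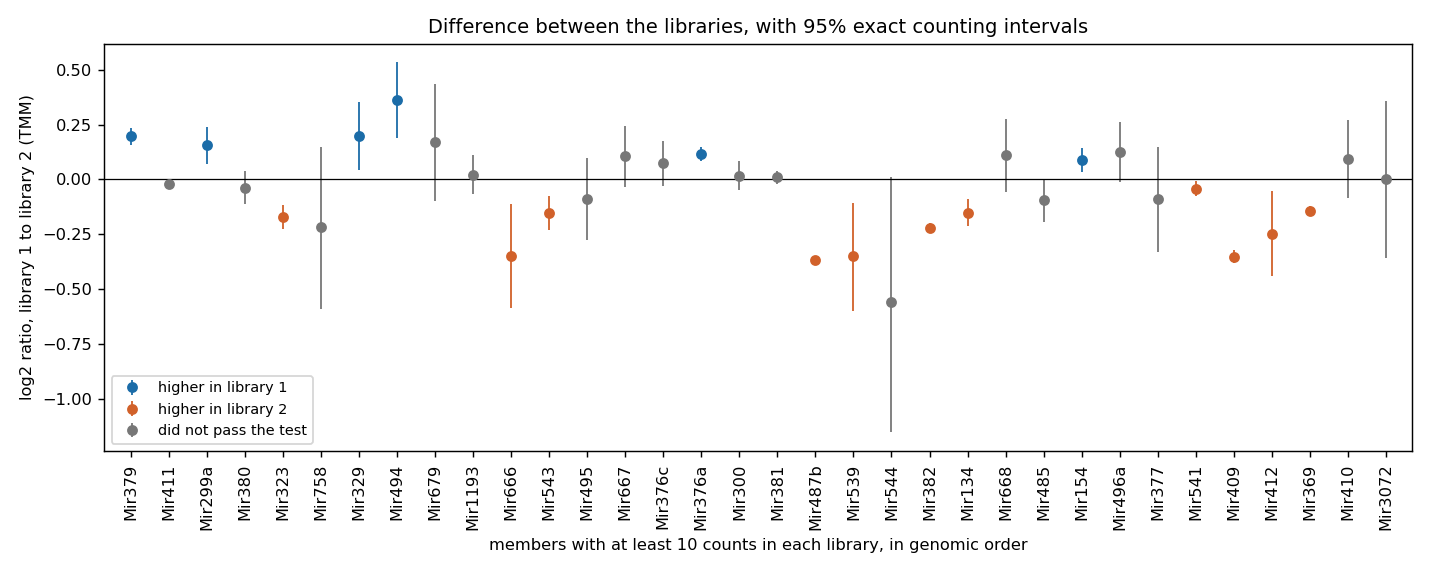
Log2 ratio of library 1 to library 2 with TMM scaling for the 34 detected members in genomic order; bars are 95% exact counting intervals, blue marks genes higher in library 1, orange genes higher in library 2 and grey genes that did not pass the exact binomial test. Ratios run from -0.56 (Mir544, not passed) to 0.36 (Mir494).

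All 34 detected members lay within 1.5-fold of equal levels, as did 319 of the 367 detected genes, and 28 lay within 1.2-fold, as did 224 of the 367. A call together with a ratio of at least 1.2-fold was found for 5 members, Mir487b, Mir409, Mir666, Mir539 and Mir494, and for 27.5% of all genes. The median log2 ratio of the members was -0.03, beside -0.01 over all 367 genes. The sum of the cluster was 1.14-fold higher in library 2 (1.14 to 1.15). Without Mir487b the sum was 1.06-fold higher (1.05 to 1.06), which makes Mir487b the gene on which the larger value rests. Mir487b also shares 20 bases with another precursor.

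The proximal miRNA genes of the same imprinted region, from Meg3 to Rian, lie upstream and include those antisense to Rtl1, which guide cleavage of the Rtl1 messenger RNA. Detection reached 15 of 20 such genes of the tables. They held 1.77% ± 0.0807 of the library totals (n = 2), led by Mir127 with 7423 CPM in library 1 and 7712 in library 2, which is close to the level of Mir369. Their sum was 1.09-fold higher in library 2 (1.08 to 1.11), between the values of the distal cluster with and without Mir487b. By the binomial test 9 of the 15 were higher in library 2, 1 in library 1 (Mir341) and 5 did not pass, beside 50.1% of all genes called in either direction, and edgeR's exact test called 0 of 15. Their median log2 ratio was -0.13, and 14 of 15 were lower in library 1, while 18 of 34 distal members and 186 of all 367 genes were. Whether the proximal and distal genes differ in this beyond the spread between pools was not tested.

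**Figure D4:**
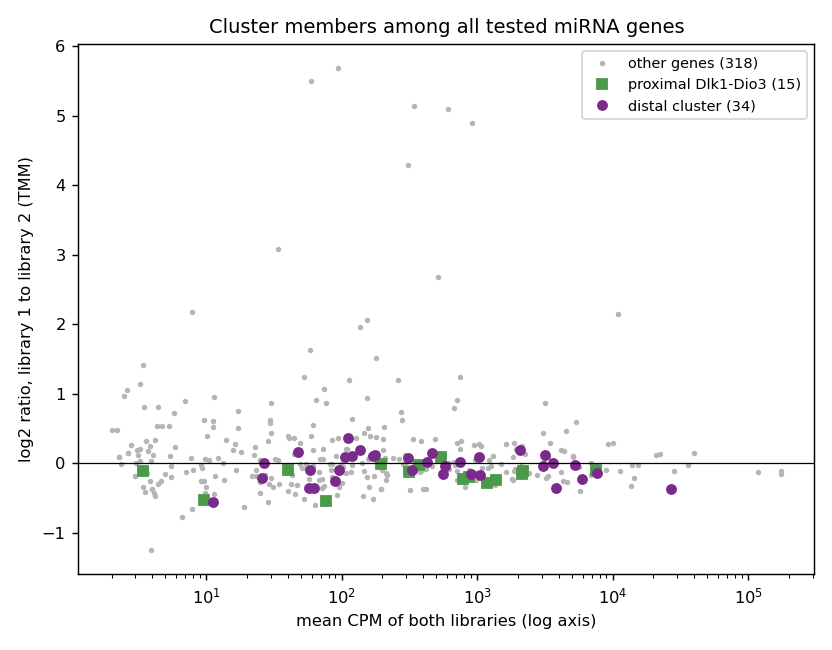
Log2 ratio of library 1 to library 2 with TMM scaling against mean CPM (log axis) for all 367 detected miRNA genes: 34 of the distal cluster (purple circles), 15 proximal (green squares) and 318 others (grey). Distal members lie between -0.56 and 0.36, while other genes reach 5.68.

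Markers of other cells also differed between the pools, with library 1 holding 8.66-fold more epithelial, 5.24-fold more endocrine and gut, and 4.25-fold more smooth muscle and mesenchyme marker CPM. Mir143 carried most of the last value, with 17950 and 3951 CPM, and without it the list was 2.40-fold higher, at 1486 and 618 CPM. Without Mir429 the epithelial list was 6.43-fold higher, and without Mir375 the endocrine and gut list was 3.56-fold higher. Of the epithelial genes Mir203 differed least, with 934 and 485 CPM. Neural markers (Mir9, Mir124a, Mir137, Mir128, Mir92b, Mir219a-2, Mir338) were detected for 7 of 11 genes and summed to 12621 CPM in library 1 and 13837 in library 2. Mir137 led them with 6615 and 7220 CPM. The defining neuronal genes Mir124a-1, Mir124a-2 and Mir124a-3 had only 8 and 17, 8 and 8, and 2 and 5 counts, and Mir9-2 had 3 and 7. Reads aligning to several places are in no gene's count, and how many came from these genes was not tested. Epithelial markers (7 of 7 detected) summed to 5458 and 631 CPM, endocrine and gut markers (4 of 5) to 1286 and 245 CPM, and smooth muscle and mesenchyme markers (5 of 7) to 19436 and 4569 CPM. Sums for endothelium were 22011 and 19666 CPM (1 of 1), blood 611 and 399 CPM (5 of 5), striated muscle 287 and 363 CPM (2 of 5) and liver 66.0 and 56.3 CPM (1 of 1). Mir7b, known from endocrine cells and brain and the 1 analysed gene of its list, had 607 and 628 CPM. Mir7-1 (206 and 221 CPM) and Mir7-2 (174 and 218 CPM) were not matched to that list, which names them Mir7a-1 and Mir7a-2. Likewise Mir486 (23.9 and 21.4 CPM), named Mir486a in the blood list, is not in the blood sum. The part of these differences in the members' ratios was not tested.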

How the data were processed

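The authors deposited 1 table of raw read counts per library, for miRNA genes on mm10 with GENCODE M4, per the accompanying README texts. Reads were under 30 bases, per the labels. Aligner and counter: not given in the sources used here. Columns give counts on both strands, on the gene's strand (used here) and on the other; the first was the sum of the others in every gene (0 exceptions). The 4 entries naming no gene (45.7% and 47.7% of reads) were left out.

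Positions came from GENCODE M21, matched by identifier without version (1894 of 1973), and sequences from RefSeq. CPM used the sum of sense counts. Ratios used TMM effective sizes (edgeR 4.0.16, R 4.3.3), exact binomial tests (scipy 1.17.1) and Benjamini-Hochberg adjustment at 0.05 over genes with at least 10 counts in each library. The test was tested on simulated data with counting error only, which does not bear on the spread between pools. Alternatives were DESeq2 1.42.0 size factors, library sizes, other filters, both strands, and leaving out a library. Hairpins were folded with RNAfold 2.7.2.

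Every detected member is named, with full values for the 12 most abundant and up to 5 with the largest ratio each way. Members and lists were chosen with earlier results of these data known.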

Additional observations from a re-analysis of the deposited data

Results flagged for a closer look

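Mir299b had 7 counts on its own strand in library 1, above the 3 counts taken as the limit for a count of 0, and 3 counts in library 2. These reads are outside the values used for the cluster, in which this entry stands for Mir299a. No group had enough samples for a search for outlying samples, and no second group was available for a difference between groups.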

How the results depend on the processing

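The share of the cluster of 6.93% was 6.13% without the minus-strand entries, 3.61% without members sharing 20 bases with another precursor, and 13.0% of a library total without the 3 most abundant genes of the tables. Leaving out either library gave 6.56% to 7.30%. The number of detected members stayed between 30 and 35 under the other filters and strands. The number of members called was 14 to 17 under the other scalings, filters and strands, and 0 with edgeR's exact test. The log2 ratio of the sum, -0.19, was -0.15 with library sizes alone, -0.18 with DESeq2 size factors and -0.080 without Mir487b. The median log2 ratio, -0.029, became 0.0089 with library sizes alone, and was -0.021 with DESeq2 size factors, -0.021 with at least 50 counts and -0.037 without members sharing 20 bases. The signs of Mir411 and Mir380 turned with library sizes alone, to 0.017 and 0.00080, and that of Mir3072 with counts from both strands, to -0.0011; none of these passed the test. The cause was not tested. No paired analysis was possible because the series holds 1 group. Genes under 100 counts, such as Mir544, have counting intervals wider than the differences seen in the abundant members.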

Other observations

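The hairpins of the cluster have recurring stretches, which were looked for after the sequences had been read. Of 5 such stretches, searched on the transcribed strand only, UACUUG occurred in 10 of the 35 member hairpins in RefSeq. Among all 1005 mouse hairpins, the members included, it occurred in 26, or 2.59%. CGCUU occurred in 13 of 35 members and in 35, or 3.48%, of all. GGUUG occurred in 12 of 35 and in 10.6% of all, UGUGAC in 7 and in 4.08%, and AGUAUC in 6 and in 2.09%. UACUUG and CGCUU are both in the hairpins of Mir487b, Mir369, Mir382 and Mir411. The median length was 79 bases in the members and in all hairpins. GC content had a median of 43.4% in the members, from 29.1% in Mir376c to 72.3% in Mir3072, and 51.7% in all hairpins. The folding energy per base predicted by RNAfold had a median of -0.414 kcal/mol in the members and -0.406 in all. Across 32 detected members with a hairpin, Spearman's rho of GC content was -0.12 with mean CPM and -0.24 with the log2 ratio of library 1 to library 2, as a description.

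Of the 64 seeds in the available mature sequences of the members, 12 also occur in a mature miRNA outside the members. The levels given for them are of whole genes and not of the arm that carries the seed. The seed ACACACC of mmu-miR-329-3p is that of mmu-miR-362-3p, and Mir362 had 50.6 and 38.4 CPM beside 147 and 125 CPM for Mir329. The seed AGGUCAC of mmu-miR-1193-3p is that of mmu-miR-370-5p, from the proximal part of the same region, and Mir370 had 825 and 919 CPM. The seed AUAUAAC of mmu-miR-410-3p occurs in 4 Mir344 genes, which summed to 5.20 and 6.46 CPM against 111 and 102 CPM for Mir410. The seed UCACCUG of mmu-miR-412-3p is that of mmu-miR-1983, and Mir1983, with 1581 and 1684 CPM, had the highest level of these genes, beside 83.2 and 96.2 CPM for Mir412. The seed GAGGUUG of mmu-miR-377-5p is that of mmu-miR-672-5p, and Mir672 had 163 and 181 CPM beside 57.0 and 59.1 CPM for Mir377. For the other 7 seeds the outside genes summed to 0 CPM in both libraries or had no entry of their own analysed here.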
